A study of Mus musculus with 8 samples.

Results

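Neurons empty and refill calcium stores and clear calcium from the cytosol with a small set of channels, pumps and exchangers, and 10 genes of that set were followed across 2 regions of the mouse striatum. They are Itpr1, Ryr1, Ryr2 and Ryr3, whose products release calcium from the endoplasmic reticulum, Atp2a2, which pumps it back, and Atp2b1, Atp2b2, Slc8a1, Slc8a2 and Slc24a2, which move it out of the cell. The 10 were picked by gene symbol from 32531 genes in each count table, with the difference between the regions already known, so their regional differences are given as a description and not as evidence for the set. All 10 had enough reads to enter the comparison.

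Ribosome-bound RNA was purified from tagged cells and sequenced, from nucleus accumbens (4 libraries) and dorsal striatum (4 libraries) of Drd1-EGFP/Rpl10a (CP73) mice, all aged over 20 months and untreated. In this line the Drd1 promoter, that of the dopamine D1 receptor, drives a ribosomal protein (L10a) tagged with green fluorescent protein, and polysomes were captured with antibodies against the fluorescent protein. The model is thus limited to cells that use this promoter, most of them direct-pathway projection neurons, and no unpurified input was analysed here. The labels give neither sex nor strain background, and leave unsaid whether animals were pooled. The spread behind each p-value is that among these libraries, which may be in part technical.

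In spiny projection neurons, inositol trisphosphate made downstream of glutamate and acetylcholine receptors opens the IP3 receptor on the endoplasmic reticulum. Ryanodine receptors open on calcium itself and amplify the signal. The SERCA pump returns calcium to the store, while plasma membrane calcium pumps, sodium-calcium exchangers and potassium-dependent sodium-calcium exchangers carry it out across the cell membrane, the pumps with high affinity and the exchangers with high capacity.

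Gene counts ran from 10831937 to 12639641 per accumbens library and from 7466970 to 10363145 per dorsal striatum library. Levels are given as CPM, the counts of a gene relative to the library total scaled by TMM factors, and 3 counts correspond to 0.237 to 0.402 CPM. Reads not assigned to a gene were 35.5% to 40.6% of counted reads in accumbens and 27.1% to 33.8% in dorsal striatum, with no overlap. Rn45s, a ribosomal RNA precursor, took 5.66% to 6.71% of gene counts in accumbens and 1.91% to 5.84% in dorsal striatum, and Lars2 took 0.424% to 0.495% in accumbens and 0.289% to 0.369% in dorsal striatum. These library measures move with region, and their part in the regional differences was not tested. Drd1, the gene behind the transgene's promoter, averaged 435 ± 86.5 CPM in accumbens and 605 ± 60.9 CPM in dorsal striatum (SD, n = 4 each; adjusted p = 0.0750 in edgeR's quasi-likelihood test). The 9 direct-pathway markers, Drd1 among them, summed to 1981 to 2247 CPM in accumbens and 2322 to 2657 CPM in dorsal striatum, with 1 called higher and 2 lower. Markers of other cells were also present. The 7 indirect-pathway markers summed to 667 to 945 CPM in accumbens and 252 to 355 CPM in dorsal striatum, with 3 of them called higher in accumbens. The 9 astrocyte markers summed to 259 to 708 CPM in accumbens and 199 to 380 CPM in dorsal striatum. Of 8 tested astrocyte markers 7 had a positive log2 fold change (median 0.68), and 1, the glutamate transporter gene Slc1a2, was called higher in accumbens (1.88-fold, adjusted p = 0.0452). The 8 oligodendrocyte markers summed to 129 to 322 CPM in accumbens and 121 to 191 CPM in dorsal striatum. The 9 microglia markers summed to 4.802 to 17.3 CPM in accumbens and 0.985 to 4.35 CPM in dorsal striatum, with C1qa at 0 in every library. The 7 endothelial markers summed to 6.99 to 189.8 CPM in accumbens and 7.10 to 79.1 CPM in dorsal striatum, the 6 mural markers to 6.65 to 79.2 CPM in accumbens and 5.92 to 42.1 CPM in dorsal striatum, and the 8 interneuron markers to 60.8 to 99.5 CPM in accumbens and 33.1 to 79.0 CPM in dorsal striatum. The 8 cortical excitatory neuron markers summed to 21.1 to 99.5 CPM in accumbens and 4.43 to 106 CPM in dorsal striatum. Over all tested genes, 1.60% were called higher in accumbens and 2.12% lower. As in astrocytes, median log2 fold changes were positive for indirect-pathway (1.11), oligodendrocyte (0.58), endothelial (0.87), mural (0.77) and interneuron markers (0.35). They were negative for direct-pathway (-0.36) and cortical excitatory neuron markers (-0.05), and microglia had 1 tested marker. The part of these cells in the results below was not tested, beyond a fit with a glial covariate given beside each gene whose call it ends. That covariate itself moved with region, at 0.0856 to 0.740 in accumbens and -1.05 to 0.485 in dorsal striatum (centred log2 CPM). A call lost with it therefore cannot tell glial RNA from region. In bulk libraries of this kind, fewer cells of a type and less RNA per cell cannot be told apart.

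The largest regional contrasts among the 10 genes lay in the exchangers. Slc8a1 was 3.28-fold higher in accumbens, Slc24a2 stood at 0.439 times and Atp2b1 at 0.505 times its dorsal striatum level, and Itpr1, Atp2a2 and Atp2b2 at 0.637 to 0.684 times. The 3 ryanodine receptor genes and Slc8a2 were not called. edgeR's quasi-likelihood test was run over 12467 genes with Benjamini-Hochberg adjustment, and a gene was called where the adjusted value was under 0.05. Of the 10, 1 was called higher in accumbens and 5 lower, where 3.72% of all tested genes were called, 1.60% higher and 2.12% lower. Libraries of the regions did not overlap for 7 of the 10, 1 higher and 6 lower in accumbens, beside 9.69% of all tested genes, 4.51% higher and 5.18% lower. The median log2 fold change of the 10 was -0.56, that of all tested genes 0.02. Since this comparison was known when the genes were chosen, nothing is read from these counts.

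**Figure D1:**
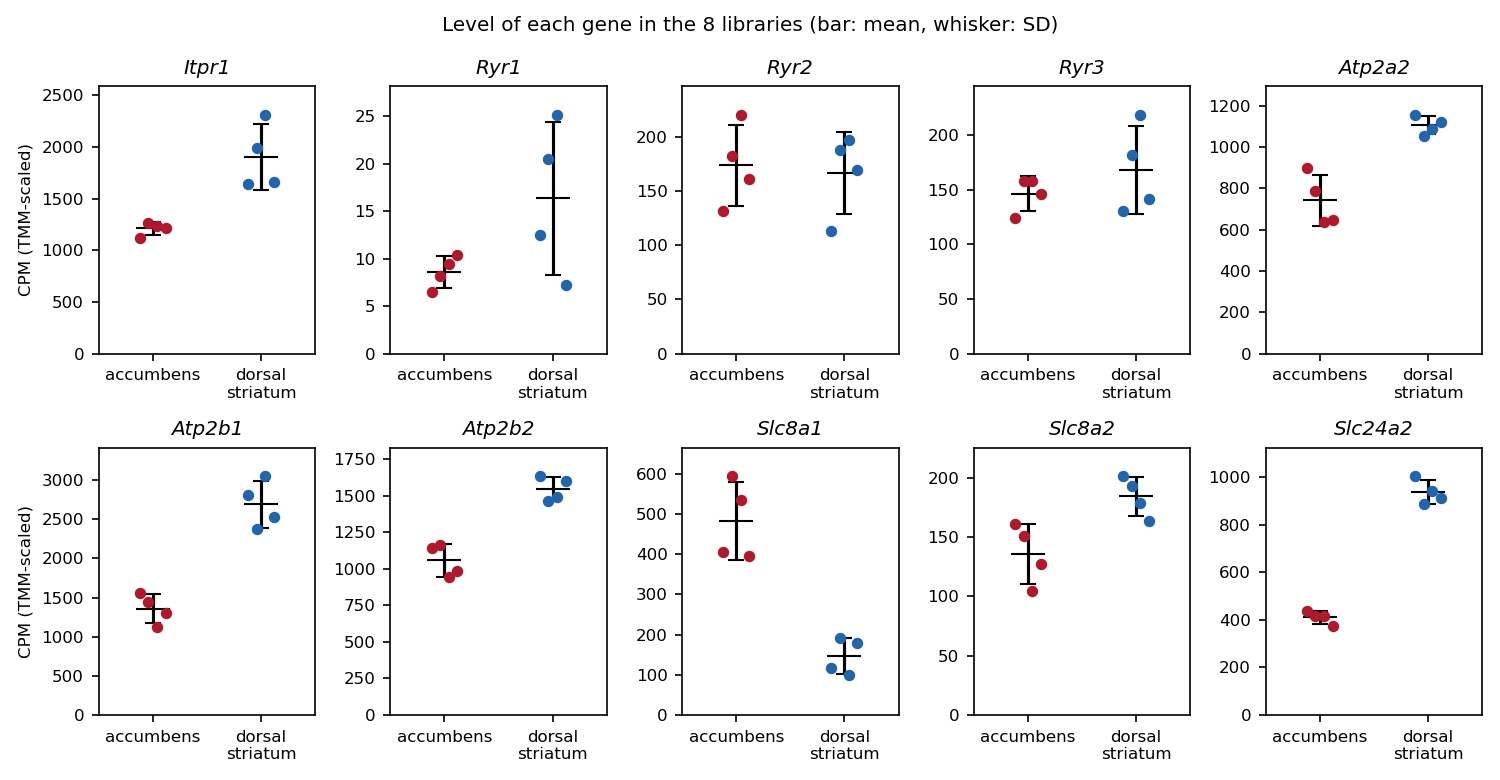
TMM-scaled CPM (y axis, linear, from 0) of the 10 genes in the 4 accumbens and 4 dorsal striatum libraries, 1 panel per gene. Points are libraries, horizontal marks the mean and whiskers the SD. Slc8a1 lies higher in every accumbens library, at 395 CPM or above against 191 CPM or below in dorsal striatum, while the points of Ryr1, Ryr2 and Ryr3 overlap between regions.

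Itpr1 encodes the main neuronal IP3 receptor (chromosome 6, 108213096 to 108551109, plus strand, GENCODE M21 on GRCm38). Its level was 1119.6, 1268, 1239 and 1219 CPM in the 4 accumbens libraries, against 1639, 1990.0, 2314 and 1661 CPM in the 4 dorsal striatum libraries. Every accumbens library lay lower than every dorsal striatum library, and the accumbens values were tightly grouped. The log2 fold change was -0.65 ± 0.12 SE (adjusted p = 0.00341). The gene's relatives Itpr2 and Itpr3 were scarce, at 5.03 ± 3.48 and 1.57 ± 1.77 CPM in accumbens and 3.26 ± 1.72 and 2.38 ± 1.44 CPM in dorsal striatum (SD, n = 4 each), with neither called. Per kilobase of annotated exon, Itpr1 made up 99.2% ± 0.587 of IP3 receptor counts in accumbens and 99.5% ± 0.0701 in dorsal striatum.

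The ryanodine receptors showed no called difference. Ryr2, known as the cardiac and brain form (chromosome 13, 11553102 to 12106945, minus strand), stood at 132, 182, 221 and 161 CPM in accumbens and at 113, 188, 197 and 169.7 CPM in dorsal striatum. The regions overlapped, and the log2 fold change was 0.06 ± 0.19 SE (adjusted p = 0.937). Ryr3 (chromosome 2, 112631355 to 113217096, minus strand), a form found in brain and other tissues, stood at 124, 158, 158 and 146 CPM in accumbens and at 131, 182, 219 and 142 CPM in dorsal striatum. Accumbens 1 lay just below the dorsal striatum range and the other 3 accumbens libraries inside it, and the log2 fold change of Ryr3 was -0.20 ± 0.17 (SE; adjusted p = 0.661).

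Ryr1, the release channel of skeletal muscle (chromosome 7, 29003344 to 29125179, minus strand), was the scarcest of the 10 genes. It was read by 72 to 125 counts per accumbens library and by 73 to 193 per dorsal striatum library. The values were 6.46, 8.19, 9.48 and 10.3 CPM in accumbens, against 12.5, 20.5, 25.2 and 7.19 CPM in dorsal striatum. Dorsal striatum 4 lay within the accumbens range and the other 3 dorsal libraries above it. The log2 fold change of -0.92 ± 0.40 SE was not called (adjusted p = 0.271), and with each library left out in turn it ran from -1.17 to -0.64. Among ryanodine receptor counts per kilobase, Ryr3 held 54.8% ± 2.88 in accumbens and 57.6% ± 2.68 in dorsal striatum, Ryr2 42.4% ± 2.99 in accumbens and 37.7% ± 3.94 in dorsal striatum, and Ryr1 2.79% ± 0.436 in accumbens and 4.71% ± 1.58 in dorsal striatum (SD, n = 4 each). All 3 shares overlapped between regions. The order of Ryr3 and Ryr2 in accumbens turned with the length used: over the longest protein-coding transcript Ryr2 stood at 10.3 ± 2.22 and Ryr3 at 9.47 ± 1.02 CPM per kilobase.

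Atp2a2 encodes SERCA2, the pump that refills the endoplasmic reticulum (chromosome 5, 122453513 to 122502225, minus strand). Its level was 897, 786, 635 and 648 CPM in accumbens, against 1156, 1055, 1089 and 1119 CPM in dorsal striatum. The regions did not overlap, and the coefficient of variation was 16.8% in accumbens and 3.89% in dorsal striatum. The log2 fold change was -0.58 ± 0.12 SE (adjusted p = 0.0104). That call was lost without accumbens 3 (-0.50, adjusted p = 0.0530) and with a glial marker covariate (-0.65, adjusted p = 0.0635). The muscle form Atp2a1 had counts in 1 library alone, and Atp2a3 lay between 0 and 3.77 CPM in accumbens and between 0 and 1.38 CPM in dorsal striatum, so Atp2a2 held 99.7% ± 0.244 of SERCA counts per kilobase in accumbens and 99.9% ± 0.0819 in dorsal striatum.

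At the cell membrane, Atp2b1 encodes PMCA1, the broadly expressed plasma membrane calcium pump (chromosome 10, 98914406 to 99026143, plus strand). It stood at 1561, 1439, 1128.5 and 1302 CPM in accumbens, against 2808.5, 2376, 3051.5 and 2525 CPM in dorsal striatum. Each dorsal striatum library exceeded each accumbens library by more than the spread within either region. The log2 fold change was -0.99 ± 0.12 SE (adjusted p = 9.10e-05). Atp2b2, which encodes PMCA2, a fast pump enriched in neurons (chromosome 6, 113743831 to 114042613, minus strand), stood at 1146, 1161, 941 and 983 CPM in accumbens, against 1634, 1463, 1493 and 1599 CPM in dorsal striatum. These libraries did not overlap either, and the log2 fold change was -0.55 ± 0.11 (SE; adjusted p = 0.00581). The call of Atp2b2 was lost with the glial marker covariate (-0.56, adjusted p = 0.0709).

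The other plasma membrane pumps did not follow. Atp2b4, which encodes PMCA4, stood at 342, 402, 330.3 and 323 CPM in accumbens, against 153, 214, 127 and 127 CPM in dorsal striatum, and rose in accumbens (1.17 ± 0.17 SE on the log2 scale, adjusted p = 0.000384). Atp2b3, which encodes the neuronal pump PMCA3, averaged 222 ± 37.0 CPM in accumbens and 225 ± 21.3 CPM in dorsal striatum (SD, n = 4 each; adjusted p = 0.975). The make-up of the pump family is shown in the plot of family shares. Per kilobase, Atp2b1 held 36.0% ± 1.85 of the family in accumbens and 49.1% ± 2.57 in dorsal striatum, and Atp2b4 11.6% ± 1.07 in accumbens and 3.57% ± 1.14 in dorsal striatum (SD, n = 4 each), with no overlap between regions for either. The share of Atp2b2 was 33.9% ± 0.966 in accumbens and 34.3% ± 2.33 in dorsal striatum.

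**Figure D2:**
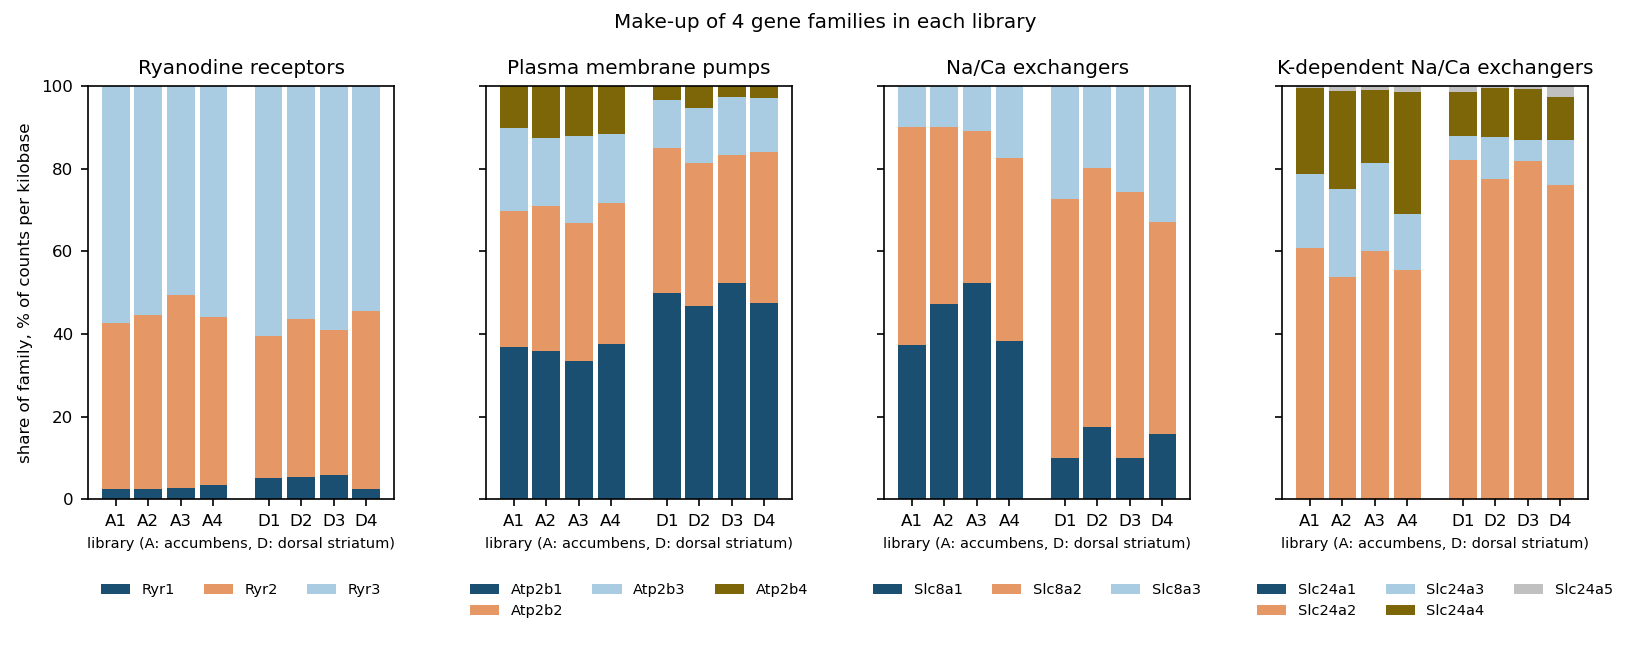
Share of each gene (y axis, percent of counts per kilobase of annotated exon) in 4 families, stacked for each of the 4 accumbens and 4 dorsal striatum libraries. Slc8a1 takes 37.3% to 52.4% of the sodium-calcium exchanger family in accumbens and 10.1% to 17.4% in dorsal striatum, while the ryanodine receptor shares overlap.

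Slc8a1 encodes NCX1, the sodium-calcium exchanger best known from heart muscle (chromosome 17, 81373105 to 81738377, minus strand). It stood at 406, 594, 534 and 395 CPM in accumbens, against 116, 191, 100.3 and 179 CPM in dorsal striatum. The lowest accumbens library was above the highest dorsal striatum library, and no other gene of the 10 was called higher in accumbens. The log2 fold change was 1.72 ± 0.20 SE (adjusted p = 6.45e-05), and 1.66 ± 0.26 SE with the glial marker covariate (adjusted p = 0.00379). Slc8a2, which encodes NCX2, a brain exchanger (chromosome 7, 16129826 to 16161063, plus strand), stood at 161, 151, 104 and 127 CPM in accumbens, against 201, 193, 179 and 163 CPM in dorsal striatum. Those libraries did not overlap, narrowly (161.2 CPM in accumbens 1 and 163.4 CPM in dorsal striatum 4), and the log2 fold change of -0.44 ± 0.16 SE was not called (adjusted p = 0.154). The brain and muscle exchanger gene Slc8a3 stood at 30.4, 35.2, 31.6 and 50.8 CPM in accumbens, against 89.0, 61.6, 72.6 and 106 CPM in dorsal striatum, and fell in accumbens (-1.15 ± 0.22 SE on the log2 scale, adjusted p = 0.00497), a call lost with the glial marker covariate (-0.79, adjusted p = 0.216).

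The summed level of the sodium-calcium exchanger genes per kilobase was close between regions, at 58.4 ± 5.85 CPM per kilobase in accumbens and 58.3 ± 3.70 in dorsal striatum (SD, n = 4 each, overlapping). Within that sum, Slc8a1 held 43.8% ± 7.26 in accumbens and 13.3% ± 3.805 in dorsal striatum, Slc8a2 44.1% ± 6.695 in accumbens and 60.2% ± 6.003 in dorsal striatum, and Slc8a3 12.03% ± 3.64 in accumbens and 26.4% ± 5.44 in dorsal striatum (SD, n = 4 each). The shares of Slc8a1 and of Slc8a3 did not overlap between regions, while those of Slc8a2 did. The near-equal sum rests on scaling by length, since Slc8a1 has 18.8 kb of annotated exon against 5.26 kb for Slc8a2. In CPM not scaled by length the family summed to 655 ± 92.8 in accumbens and 413 ± 45.3 in dorsal striatum, with no overlap.

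Slc24a2 encodes NCKX2, the potassium-dependent sodium-calcium exchanger abundant in neurons (chromosome 4, 86983124 to 87230477, minus strand). It stood at 438, 415, 419 and 373 CPM in accumbens, against 1005, 888, 941 and 913 CPM in dorsal striatum. Both regions were tightly grouped, with coefficients of variation of 6.58% in accumbens and 5.40% in dorsal striatum, and far apart. The log2 fold change was -1.19 ± 0.11 SE (adjusted p = 6.69e-06), the smallest adjusted p of the 10. Its relatives Slc24a3 and Slc24a4 averaged 49.9 ± 11.8 and 60.5 ± 12.7 CPM in accumbens and 35.1 ± 13.2 and 49.4 ± 2.27 CPM in dorsal striatum (SD, n = 4 each), with neither called (log2 fold changes 0.50 and 0.29). Slc24a5 averaged 1.38 ± 0.415 CPM in accumbens and 3.01 ± 2.22 CPM in dorsal striatum and was not called. Slc24a1 averaged 0.121 ± 0.187 CPM in accumbens and 0.286 ± 0.374 CPM in dorsal striatum and was too scarce to be tested. Slc24a2 held 57.5% ± 3.47 of its family per kilobase in accumbens and 79.3% ± 3.15 in dorsal striatum, a difference of -21.8 percentage points, which was -12.8 in counts not scaled by length. The shares of Slc24a3 (18.6% in accumbens, 7.96% in dorsal striatum) and Slc24a4 (22.9% in accumbens, 11.3% in dorsal striatum) did not overlap between regions, though neither gene was called.

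**Figure D3:**
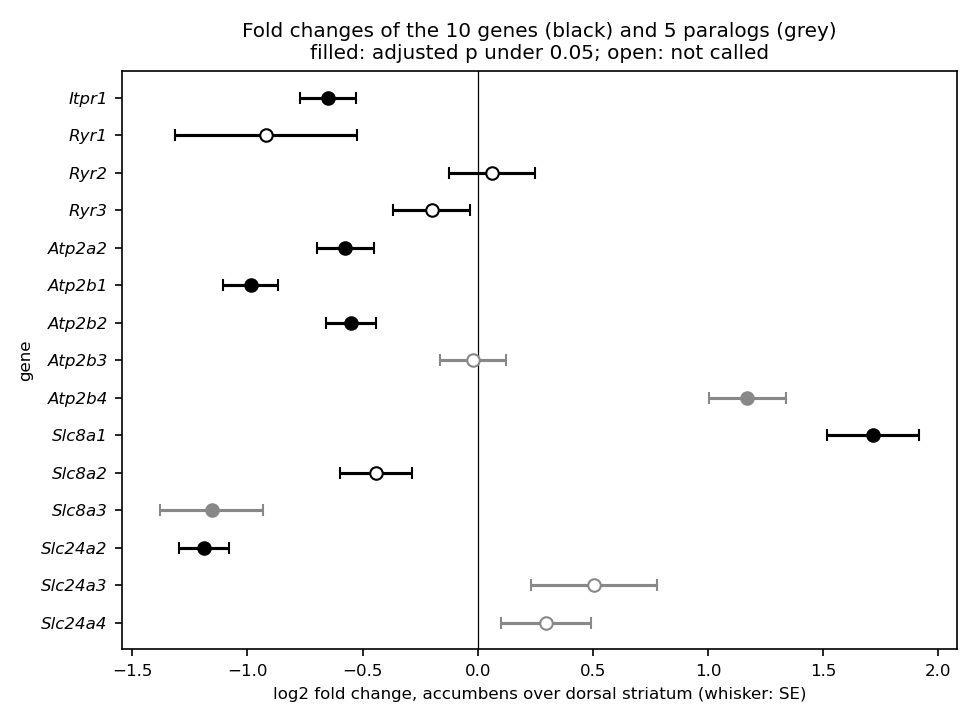
Log2 fold change of accumbens over dorsal striatum (x axis; whiskers, SE derived from edgeR's F statistic, n = 4 libraries per region) for the 10 genes in black and 5 paralogs in grey. Filled points have an adjusted p under 0.05. Slc8a1 at 1.72 and Atp2b4 at 1.17 lie to the right, and Slc24a2 at -1.19, Slc8a3 at -1.15 and Atp2b1 at -0.99 lie farthest left among the filled points.

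The promoter sequences of the genes with the 3 largest called fold changes are shown because these genes differ between the regions in opposite directions. The windows, from 250 bases before to 50 after a start, come from a table of RefSeq promoters (GRCm38.p6) in which 7 of the 10 genes matched, with 11 windows in all. Itpr1, Ryr3 and Atp2a2 were not matched in that table. Capitals mark matches on either strand to the GC box (letters GGGCGG), the letters CCAAT, the TATA box (letters TATAAA), the E box (letters CACGTG) or the core of the cAMP response element (letters TGACG), overlapping matches included. The windows lie at chr17:81738338-81738637 (Slc8a1, minus strand), chr4:87230491-87230790 and chr4:87227914-87228213 (Slc24a2 upstream and downstream starts, minus strand), and chr10:98914392-98914691 and chr10:98914902-98915201 (Atp2b1 upstream and downstream starts, plus strand).
Slc8a1: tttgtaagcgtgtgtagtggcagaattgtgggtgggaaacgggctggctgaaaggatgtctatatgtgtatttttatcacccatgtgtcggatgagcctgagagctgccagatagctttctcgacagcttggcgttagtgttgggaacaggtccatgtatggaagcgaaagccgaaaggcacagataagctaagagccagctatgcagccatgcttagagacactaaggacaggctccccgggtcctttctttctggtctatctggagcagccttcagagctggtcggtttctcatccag
Slc24a2 upstream start: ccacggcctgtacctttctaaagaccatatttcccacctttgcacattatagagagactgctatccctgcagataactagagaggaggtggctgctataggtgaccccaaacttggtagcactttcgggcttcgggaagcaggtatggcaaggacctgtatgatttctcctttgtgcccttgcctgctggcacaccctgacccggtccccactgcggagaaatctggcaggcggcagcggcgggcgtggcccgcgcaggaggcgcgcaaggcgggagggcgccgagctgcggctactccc
Slc24a2 downstream start: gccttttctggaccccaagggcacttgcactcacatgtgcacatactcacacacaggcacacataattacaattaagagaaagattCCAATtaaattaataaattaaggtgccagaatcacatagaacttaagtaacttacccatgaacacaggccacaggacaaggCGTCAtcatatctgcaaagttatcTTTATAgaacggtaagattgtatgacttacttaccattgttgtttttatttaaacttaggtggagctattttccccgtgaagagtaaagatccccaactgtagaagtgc
Atp2b1 upstream start: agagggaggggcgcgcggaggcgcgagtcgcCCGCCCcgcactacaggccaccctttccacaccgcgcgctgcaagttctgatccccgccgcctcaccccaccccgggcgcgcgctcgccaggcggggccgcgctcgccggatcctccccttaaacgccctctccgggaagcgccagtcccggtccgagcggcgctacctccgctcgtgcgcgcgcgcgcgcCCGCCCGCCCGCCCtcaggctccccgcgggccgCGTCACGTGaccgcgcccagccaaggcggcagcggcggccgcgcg
Atp2b1 downstream start: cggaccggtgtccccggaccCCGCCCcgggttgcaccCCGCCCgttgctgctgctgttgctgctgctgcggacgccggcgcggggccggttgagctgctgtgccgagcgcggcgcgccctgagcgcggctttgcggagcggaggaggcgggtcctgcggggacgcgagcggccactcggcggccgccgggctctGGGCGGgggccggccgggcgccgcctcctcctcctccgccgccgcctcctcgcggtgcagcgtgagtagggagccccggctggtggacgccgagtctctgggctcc
The Slc8a1 window holds 9 CpG dinucleotides and none of the motifs. The upstream Slc24a2 window holds 17 CpG and none of the motifs, and the downstream one holds 3 CpG with 1 match each to the TATA box, CCAAT and TGACG. The Atp2b1 windows hold 54 and 45 CpG, with 4 and 3 GC box matches, and the first has an E box that overlaps its TGACG match. The median over all 32851 windows was 7 CpG, and 35.7% of windows held a GC box, 37.4% a CCAAT match, 13.6% a TATA box, 7.15% an E box and 20.8% TGACG. Among the 11 windows of the 10 genes, 7 held a GC box, 3 a CCAAT match, 1 a TATA box, 1 an E box and 2 TGACG, and 0 held the full cAMP response element TGACGTCA, which 1.79% of all windows hold. The windows of Atp2b1 and Slc24a2, both lower in accumbens, ranged from 3 to 54 CpG, and that of Slc8a1, higher in accumbens, lay within that range.

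Levels of different genes can be set side by side per kilobase of annotated exon. In accumbens the order was Atp2a2 (122 ± 20.4 CPM per kilobase), Atp2b1 (89.2 ± 12.2), Atp2b2 (83.9 ± 8.88), Itpr1 (66.1 ± 3.52), Slc24a2 (33.7 ± 2.22), Slc8a2 (25.8 ± 4.81), Slc8a1 (25.6 ± 5.19), Ryr3 (7.72 ± 0.834), Ryr2 (6.04 ± 1.30) and Ryr1 (0.395 ± 0.0775). In dorsal striatum it was Atp2a2 (182 ± 7.07), Atp2b1 (177 ± 19.7), Atp2b2 (123 ± 6.53), Itpr1 (104 ± 17.4), Slc24a2 (76.7 ± 4.14), Slc8a2 (35.0 ± 3.18), Ryr3 (8.87 ± 2.13), Slc8a1 (7.80 ± 2.40), Ryr2 (5.80 ± 1.31) and Ryr1 (0.749 ± 0.368; SD, n = 4 each). Neighbours whose libraries overlapped were Atp2b1 and Atp2b2, Slc24a2 and Slc8a2, Slc8a2 and Slc8a1, and Ryr3 and Ryr2 in accumbens. In dorsal striatum they were Atp2a2 and Atp2b1, Atp2b2 and Itpr1, Ryr3 and Slc8a1, and Slc8a1 and Ryr2. Slc8a1 overlapped with Slc8a2 and with Slc24a2 in accumbens, and with Ryr3 and Ryr2 in dorsal striatum. With the longest protein-coding transcript as the length, Atp2b1 came before Atp2a2, at a mean ratio of 1.16 in accumbens and 1.53 in dorsal striatum. Over that length Itpr1 also came before Atp2b2, at 123 against 119 CPM per kilobase in accumbens and 193 against 174 in dorsal striatum. Slc8a1 then came before Slc8a2 (26.1 against 25.8) and Ryr2 before Ryr3 in accumbens, and Ryr2 before Slc8a1 in dorsal striatum (9.92 against 7.94).

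Summed over each family per kilobase, IP3 receptor genes reached 66.6 ± 3.53 in accumbens and 104 ± 17.4 in dorsal striatum, and SERCA genes 122 ± 20.5 in accumbens and 182 ± 7.08 in dorsal striatum (CPM per kilobase, SD, n = 4 each). Plasma membrane pump genes reached 248 ± 26.9 in accumbens and 359 ± 21.5 in dorsal striatum, and potassium-dependent exchanger genes 58.6 ± 3.45 in accumbens and 96.6 ± 3.30 in dorsal striatum (CPM per kilobase, SD, n = 4 each). All 4 sums were lower in accumbens with no overlap. In accumbens Itpr1 held 99.2% of its family sum, Atp2a2 99.7%, Slc24a2 57.5%, Atp2b1 36.0% and Atp2b2 33.9%. In dorsal striatum these shares were 99.5%, 99.9%, 79.3%, 49.1% and 34.3%. Since these genes were already called lower above, the 4 sums largely restate their differences, and nothing further is read from them. The ryanodine receptor sum was 14.2 ± 2.12 in accumbens and 15.4 ± 3.60 in dorsal striatum and overlapped. Itpr1 outweighed the ryanodine receptor genes together by 4.73 ± 0.511 times in accumbens and 6.83 ± 0.697 times in dorsal striatum per kilobase, with no overlap.

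**Figure D4:**
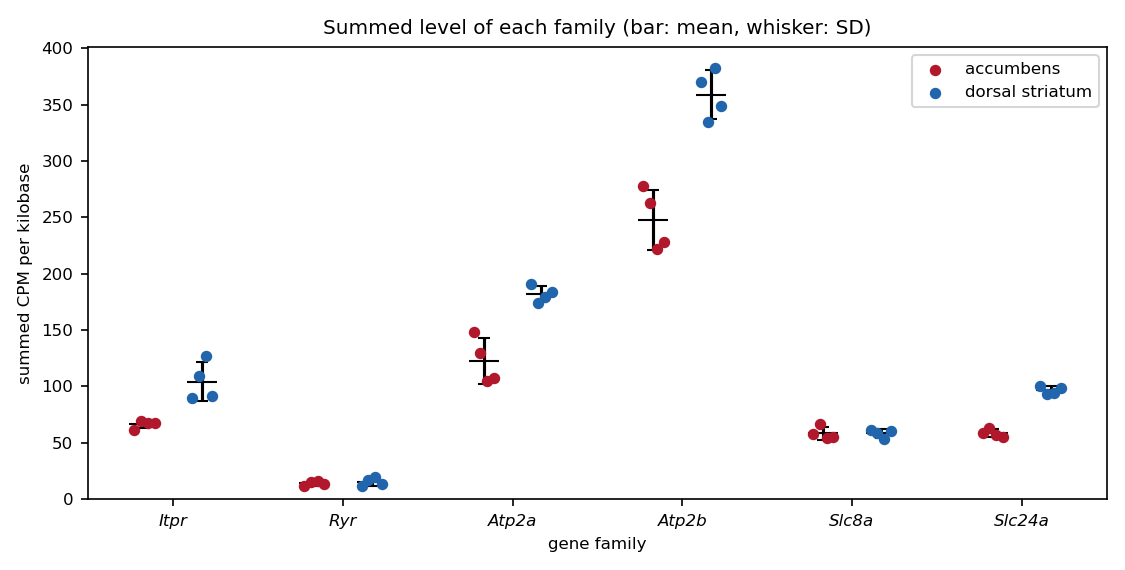
Summed CPM per kilobase (y axis, from 0) of 6 gene families in accumbens (left of each pair) and dorsal striatum. Points are libraries, horizontal marks the mean and whiskers the SD (n = 4). The Itpr, Atp2a, Atp2b and Slc24a sums lie lower in every accumbens library, while the Ryr and Slc8a sums overlap between regions.

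Around the 10 genes, 8 lists of other calcium handling genes were examined, with 99 genes in the tables and 85 tested. Of these, 1 rose in accumbens (Atp2b4) and 4 fell (Slc8a3, Homer1, Nptn and Calb1), where 1.60% of all tested genes were called higher and 2.12% lower. The median log2 fold change of the 85 was 0.02, that of all tested genes also 0.02. Atp2c1, which encodes a Golgi calcium pump, averaged 89.3 ± 13.97 CPM in accumbens and 88.9 ± 8.66 CPM in dorsal striatum and was not called. Atp2c2 and Slc8b1 averaged 0.909 ± 0.698 and 0.0828 ± 0.166 CPM in accumbens and 0.130 ± 0.196 and 0.183 ± 0.215 CPM in dorsal striatum and were not tested. Among the 16 tested partners of the release channels, 1 fell and 0 rose, beside 2.12% and 1.60% of all tested genes. Of these 16, 6 had an unadjusted p under 0.05 in edgeR. So had 3 of 5 tested cytosolic buffers, 1 of 4 tested pump regulators and 2 of 10 tested other channels, pumps and exchangers. Homer1, which encodes a scaffold that links metabotropic glutamate receptors to IP3 receptors, stood at 284, 297, 294 and 274 CPM in accumbens, against 493, 405, 514 and 486 CPM in dorsal striatum (log2 fold change -0.72 ± 0.12 SE, adjusted p = 0.00128), a call lost with the glial marker covariate (-0.61 ± 0.15, adjusted p = 0.0612). The abundant partners Fkbp1a, whose protein binds ryanodine receptors, and Jph4, a junctophilin, averaged 3155 ± 264 and 588 ± 95.2 CPM in accumbens and 2664 ± 316 and 574 ± 5.92 CPM in dorsal striatum and were not called.

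Of 4 tested pump regulators and subunits, Nptn, which encodes the plasma membrane pump subunit neuroplastin, fell in accumbens (302 ± 29.2 CPM, against 417 ± 33.4 CPM in dorsal striatum; log2 fold change -0.46 ± 0.12 SE, adjusted p = 0.0404). Its call was lost without accumbens 2, 3 or 4 or dorsal striatum 1, 2 or 3, at log2 fold changes from -0.48 to -0.41 and adjusted p from 0.0709 to 0.136, and with the glial marker covariate (-0.55, adjusted p = 0.141). Bsg, which encodes basigin, the related subunit, averaged 190 ± 28.8 CPM in accumbens and 142 ± 48.6 CPM in dorsal striatum (adjusted p = 0.409). Of 5 tested cytosolic calcium buffers, Calb1, which encodes calbindin, stood at 93.9, 87.9, 70.2 and 93.3 CPM in accumbens, against 198, 175, 235 and 229.7 CPM in dorsal striatum, and fell in accumbens (-1.28 ± 0.15 SE on the log2 scale, adjusted p = 8.60e-05).

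The 4 remaining lists had 0 calls in edgeR, beside 3.72% of all tested genes. At that share, lists of 11 to 16 genes can hold 0 calls without differing from other genes, so nothing is read from these counts. The share of all tested genes at an unadjusted p under 0.05 was not counted. Of 12 genes of IP3 turnover, 0 had an unadjusted p under 0.05, and DESeq2 and limma-voom called 0 too. Inpp5f stood at 357 ± 51.2 CPM in accumbens and 354 ± 47.97 CPM in dorsal striatum. The 16 tested genes of reticulum buffering, folding and leak had 1 at an unadjusted p under 0.05 and 0 calls in DESeq2 and limma-voom, with the chaperone gene Hsp90b1 at 409.9 ± 43.4 CPM in accumbens and 389 ± 67.2 CPM in dorsal striatum. The 11 store-operated entry genes had 2 at an unadjusted p under 0.05, 1 DESeq2 call (Trpc6, named after its value was seen; log2 fold change -3.73, DESeq2 adjusted p = 0.00634) and 0 in limma-voom. Trpc6 was scarce, at 0.207 ± 0.154 CPM in accumbens and 2.76 ± 1.41 CPM in dorsal striatum. The reticulum calcium sensor gene Stim2 averaged 95.0 ± 29.8 CPM in accumbens and 112 ± 23.6 CPM in dorsal striatum. The 11 tested mitochondrial genes had 0 at an unadjusted p under 0.05 and 0 in either other tool, with the outer membrane channel gene Vdac1 at 291 ± 33.9 CPM in accumbens and 337 ± 32.9 CPM in dorsal striatum.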

How the data were processed

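The authors deposited raw read counts by gene symbol, 1 table for each library. Per the submitters' processing notes, STAR 2.0.0e, HTSeq and the mm10 build were used. The annotation and strand setting are not given in the sources used here. HTSeq's totals of unassigned reads, 35.5% to 40.6% of counted reads in accumbens and 27.1% to 33.8% in dorsal striatum, and a row that names no gene (0 counts) were left out. For 5 of the 10 genes (Itpr1, Ryr1, Ryr3, Atp2a2 and Slc8a1) some exon overlaps a gene on the opposite strand, over 1.36% to 4.83% of exonic length.

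Regions were compared with the quasi-likelihood F test of edgeR 4.0.16, run in R 4.3.3 (TMM scaling, filterByExpr with a minimum count of 10, 12467 genes, Benjamini-Hochberg adjustment over all of them, threshold 0.05), with region as the only term and fold changes as accumbens over dorsal striatum. In edgeR fits, each SE is the absolute log2 fold change over the square root of the F statistic. DESeq2 1.42.0 and limma 3.58.1 were among the alternatives. The glial covariate is the mean log2 CPM (prior count 2), centred for each gene, of the tested astrocyte, oligodendrocyte and microglia markers. Lengths are unions of GENCODE M21 exons.

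The 10 genes and the lists were chosen with earlier results of these data known. From each list the text draws on the called genes, at most 4 by fold change, and at most 2 with the highest level, besides the relatives of the 10 genes. No pair of libraries of a region agreed within sampling noise.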

Additional observations from a re-analysis of the deposited data

Results flagged for a closer look

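Of 90 groups of 4 libraries examined for a library far from the others, 4 stood out, where chance gives about 1 in 20. The share of Slc8a2 in its family in dorsal striatum was lowest in dorsal striatum 4, at 51.3% with the next library at 62.6% (gap over range 0.874). The share of Ryr1 in its family in accumbens was highest in accumbens 4, at 3.44% with the next at 2.65% (gap over range 0.842). Saraf, a regulator of store-operated entry, was highest in accumbens 1, at 78.6 CPM with the next accumbens library at 56.8 CPM (gap over range 0.861). Atp2a3 in dorsal striatum was highest in dorsal striatum 2, at 1.38 CPM with the next at 0.0985 CPM (gap over range 0.929).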

How the results depend on the processing

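Over 18 alternatives, 7 of the 10 genes kept direction and call: Itpr1, Ryr1, Ryr3, Atp2b1, Slc8a1, Slc8a2 and Slc24a2. The labels do not say whether same-numbered libraries of the regions share animals. Correlations of same-numbered deviations were 0.014, -0.0811, -0.0433 and -0.0352, and no library matched its own number best. These values cannot settle it, since spread among libraries can hide a shared animal. With the replicate number as a block, 194 genes were called higher in accumbens and 238 lower (200 and 264 without it), and the 10 genes kept 1 and 5. The glial covariate left 56 higher and 87 lower calls over all genes, 3 of the 10 lower, and 1 other calcium gene lower. No filter on low counts gave 350 higher, and DESeq2 391 higher and 402 lower. Other calcium genes called higher numbered 2 (the second being Calb2) without a filter, with DESeq2 and without accumbens 2 and dorsal striatum 3 together, and 1 to 2 with single libraries left out (2 without accumbens 2). Trpc6 was called by DESeq2 alone. Leaving out 1 library gave 139 to 191 calls higher and 184 to 236 lower. With counts not per kilobase, accumbens minus dorsal shares were 38.2 percentage points for Slc8a1 (30.5 per kilobase), -24.0 for Slc8a2 (-16.1) and -12.8 for Slc24a2 (-21.8). With the longest transcript as length, added after seeing the data, the difference was 2.29 for Atp2b2 (-0.376), and Atp2b1 stood at 1.16 times Atp2a2 in accumbens and 1.53 times in dorsal striatum (0.735 in accumbens and 0.973 in dorsal striatum with all exons). Some uncalled genes turned direction, all near 0 except Slc24a5. Ryr2 stood at -0.0695 without accumbens 3 and -0.0877 without dorsal striatum 1, the lowest of a range up to 0.176 with single libraries left out. Atp2b3 stood at 0.0079 thinned to the smallest library, 0.0020 without accumbens 2, 0.0604 without accumbens 4, 0.0456 without dorsal striatum 3, 0.0722 without accumbens 2 and dorsal striatum 3 together, and 0.0452 in limma-voom. Atp2c1 stood at -0.0038 with upper-quartile scaling, -0.0022 with the replicate block, -0.0105 thinned, -0.119 without both libraries, and -0.103 to 0.0752 with single libraries left out. Slc24a5 stood at 0.0876, Hsp90b1 at -0.0630 and Necab2 at 0.0157 with the glial covariate. Without that covariate Slc24a5 stood at -1.12 ± 0.79 (SE). Hsp90b1 ranged from -0.0259 to 0.177 with single libraries left out, Jph4 from -0.0819 to 0.0919 (-0.00072 in limma-voom), Inpp5f from -0.0710 to 0.111 (-0.130 without both libraries, -0.0065 in limma-voom) and Ip6k1 from -0.238 to 0.0072 (0.0308 without both libraries). The cause was not tested. Depth limits the scarce genes: 3 counts stand for up to 0.402 CPM, and Ryr1 had 72 to 193 counts a library.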

Other observations

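Ratios between genes of 1 library do not depend on its total count. Those below restate regional differences known when the genes were chosen, and nothing further is read from them. Per kilobase, Slc8a1 stood at 0.602, 0.931, 0.828 and 0.687 times Slc24a2 in the accumbens libraries, and at 0.0750, 0.140, 0.0692 and 0.127 times in the dorsal striatum libraries. The ratio of Slc8a1 to Slc8a2 was 1.03 ± 0.315 in accumbens and 0.225 ± 0.0776 in dorsal striatum, and that of Atp2b1 to Atp2b2 was 1.06 ± 0.0622 in accumbens and 1.44 ± 0.174 in dorsal striatum (SD, n = 4 each), with no overlap in any of the 3 ratios. The exchanger families together summed to 117 ± 9.21 CPM per kilobase in accumbens and 155 ± 6.57 in dorsal striatum.

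Among 6260 other genes averaging at least 20 CPM, those closest to the mean pattern of the 10 genes over the 8 libraries were Kcmf1, Fat3, Ranbp2, Gnal and March4. Their root mean square differences from it were 0.0606 to 0.0970 in centred log2 CPM. Their log2 fold changes ran from -0.46 (Fat3) to -0.26 (Kcmf1). The mean pattern blends Slc8a1 with genes that differ the other way.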
